A study of Caenorhabditis elegans with 6 samples.

Results

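The data described here are the 3 control arrays of a series of 6 single-colour Affymetrix arrays, titled as biological replicates 1 to 3, and they cover 17118 genes. The animals were whole Caenorhabditis elegans larvae of the wild-type strain N2, labelled L2, the second larval stage. Synchronized L1 larvae had been plated on HT115 bacteria transformed with the RNA interference (RNAi) vector alone (L4440, written LL4440 in some labels) and were harvested after 21 hours at 20 C on 2% agarose plates. These larvae were therefore not untreated: the vector had no gene insert, but the labels state that it makes short double-stranded RNA with no specific target. For each array, 4 ug of total RNA was used to make the biotin-labelled sample. The other 3 arrays of the series are not compared here. Beyond the titles, the labels do not say whether the replicates came from separate cultures, so the spread given below is that between these 3 arrays.

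Nematode larvae grow through a fixed series of stages, each closed by a molt in which the epidermis makes a new cuticle and the old one is shed. Many genes for cuticle collagens, for the matrix laid down before the cuticle and for the molting enzymes are known to switch on and off once per stage, in a fixed order. Growing larvae are also known for high transcript levels of the ribosome, of energy metabolism and of muscle, while yolk and sperm genes belong to adults and most chemoreceptor genes to a few neurons each.

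A signal below is the deposited log2 value of a probe set, the group of short probes that reads 1 transcript, and a gene is represented by its brightest probe set over the 3 arrays. Ranks are given as percentiles, the percent of the 17118 genes at or below a gene's mean signal. The brightness of a probe set depends on its probes as well as on the amount of RNA, so a rank orders array signals and not transcript numbers. In the 2981 genes with more than 1 probe set, the brightest and the dimmest differed by a median of 0.93 log2, with an interquartile range of 0.41 to 1.74. For the ribosomal protein gene rpl-8 one probe set averaged 13.60 and the other 3.49. In whole larvae, fewer cells of a type and less RNA per cell cannot be told apart.

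The distribution of signals was nearly the same on all 3 arrays, with medians over genes of 5.14 on each, lower quartiles between 3.58 and 3.64 and upper quartiles between 7.13 and 7.18. The arrays were not equally alike gene by gene. Across genes, which are not independent replicates, Pearson's r was 0.997 between replicates 1 and 2, 0.990 between replicates 2 and 3 and 0.984 between replicates 1 and 3. At least 2-fold differences were found in 45, 319 and 565 genes for these pairs. Replicate 3 thus stood apart from replicates 1 and 2, and counts of variable genes in the groups that rest on it are given below with and without it. The median SD of a gene over the 3 arrays was 0.11 log2, and 95% of genes had an SD under 0.43.

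The labelled stage was set against marker genes of cell types and of adults. Of 26 measured markers of 7 somatic tissues, 25 were above the level called dim below, by their mean over the arrays. Body wall muscle was read by the myosin heavy chain genes unc-54, at 11.63, 11.58 and 11.37 in control replicates 1, 2 and 3, and myo-3, at 9.38, 9.39 and 9.32. The brush border actin gene act-5 of the intestine gave 11.94, 11.95 and 12.01. For the epidermal transcription factor gene lin-26 the values were 9.42, 9.29 and 9.22, and for the synaptic vesicle gene rab-3 of neurons 8.52, 8.60 and 8.61. Muscle, intestine, epidermis and nervous system thus all contributed signal, with an SD of at most 0.14 in these 5 markers. Others of the same sets varied more, with an SD of 0.22 for the synaptic gene snt-1, 0.28 for the epidermal regulator gene elt-3 and 1.24 for the epidermal collagen gene dpy-7. The exception among the 26 was rgef-1, a gene used by all neurons, at 3.32, 3.56 and 3.80. Germ line markers were above the dim level too by the mean of their brightest probe set, among them glh-1, a helicase gene of germ granules, at 8.46, 8.44 and 8.51. The marker him-3 lay near that level, at 6.21, 5.59 and 5.87. Further probe sets of him-3 and of gld-1 were dim, with means of 5.39 and 4.94. Of 5 oocyte and eggshell markers, which belong to adults as well, 3 were above the dim level by their brightest probe set. They were cbd-1 and perm-4, each with a mean of 7.25, and rme-2 with 5.87. The other probe set of cbd-1 was dim, with a mean of 3.44. Of the 4 probe sets of perm-4 only the brightest was above the dim level, and the next averaged 4.88. For cbd-1 and perm-4 the call thus rests on 1 probe set each. All 6 markers of the adult hermaphrodite were dim. The yolk protein gene vit-2 gave 2.94, 2.95 and 2.59, and the adult collagen gene col-19 gave 3.62, 3.55 and 3.70.

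**Figure D1:**
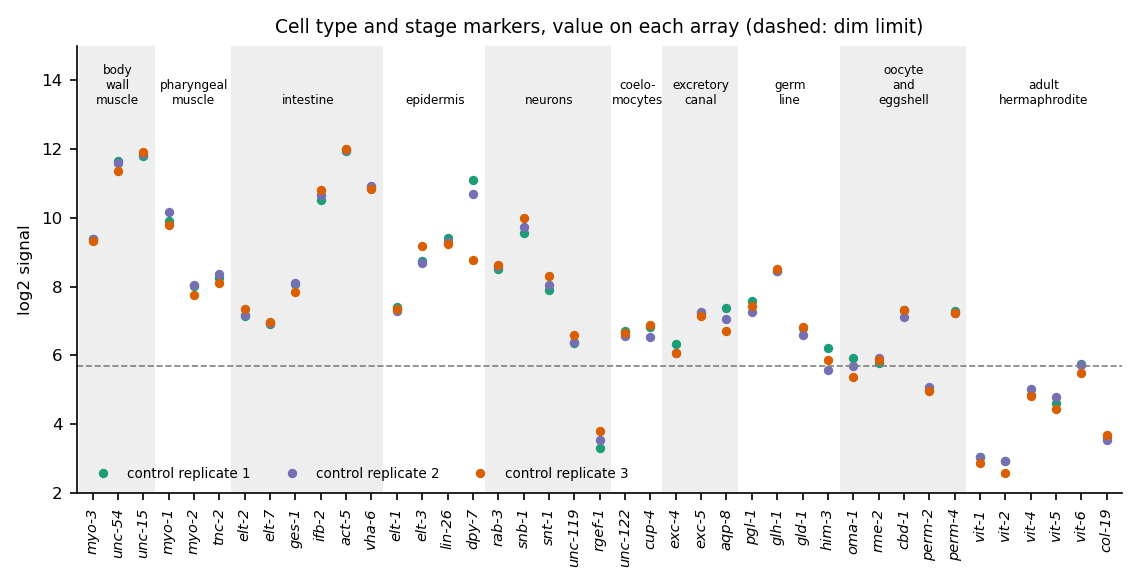
Log2 signal of cell type and stage markers on control replicates 1, 2 and 3, 1 point per array, grouped by tissue, with the dim limit of 5.70 as a dashed line. Markers of muscle, intestine, epidermis and most neuronal markers lie above the line, and the means of the 6 adult markers (yolk genes and col-19) lie below it, with vit-6 at the line. The oocyte and eggshell markers lie on both sides.

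Proteins of the ribosome made up the bright end of the range. The brightest 1% were 171 genes (0.999% of all genes), with a mean signal of at least 11.82, and 76 of them encode proteins of the cytosolic ribosome. Of the 80 ribosomal protein genes measured, 79 were among the brightest 5% (856 genes, 5% of all genes, at least 9.62). They supplied 21 of the 25 brightest genes and 71 of the brightest 100. The large-subunit gene rpl-8 read 13.59, 13.62 and 13.57 in control replicates 1, 2 and 3. The small-subunit genes rps-3A, at 13.62, 13.56 and 13.56, and rps-26, at 13.62, 13.55 and 13.55, followed it. The median SD of the 75 genes that carry rpl or rps symbols was 0.036 log2, against 0.11 over all genes, and their mean signal was 12.95, 12.94 and 12.94 on the 3 arrays. Whether signals this close to the upper end of the scale were saturated cannot be read from these values. One ribosomal gene was dim, rpl-42, at 5.06, 5.02 and 4.89.

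The brightest genes outside the ribosomal proteins included genes of cuticle, digestion and translation. Cuticle collagens supplied 15 of the 171 genes of the brightest 1%, and translation factors 6. The brightest gene of all was the cuticle collagen gene col-93, at 14.12, 14.17 and 14.33 (14.21 ± 0.11, SD, n = 3), and its second probe set averaged 14.15. The collagen gene col-125 read 13.84, 13.96 and 14.09. Next among genes outside the ribosome and translation were dpy-13, a collagen gene that sets body length, at 13.49, 13.43 and 13.58, and asp-1, an aspartic protease gene of the intestine, at 13.51, 13.49 and 13.44. The collagen gene sqt-3 followed at 13.30, 13.27 and 13.07. These 5 genes were bright on every array, and their SDs lay between 0.038 and 0.13. Then came ndk-1, for a nucleoside diphosphate kinase, with a mean of 13.10, rack-1, for a ribosome-bound scaffold, with 13.04, and crt-1, for the chaperone calreticulin, with 13.02. The collagen gene col-17 averaged 12.98 and hrg-7, for a secreted protease-like protein of heme signalling, 12.95. The elongation factor gene eef-1A.1 stood highest among translation factors, at 13.24, 13.29 and 13.40. Of the 171 genes of the brightest 1%, 113 were read by probe sets whose names end in _s_at or _x_at, which can be shared by near-identical genes, so the order among collagens and among other multigene families is uncertain.

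**Figure D2:**
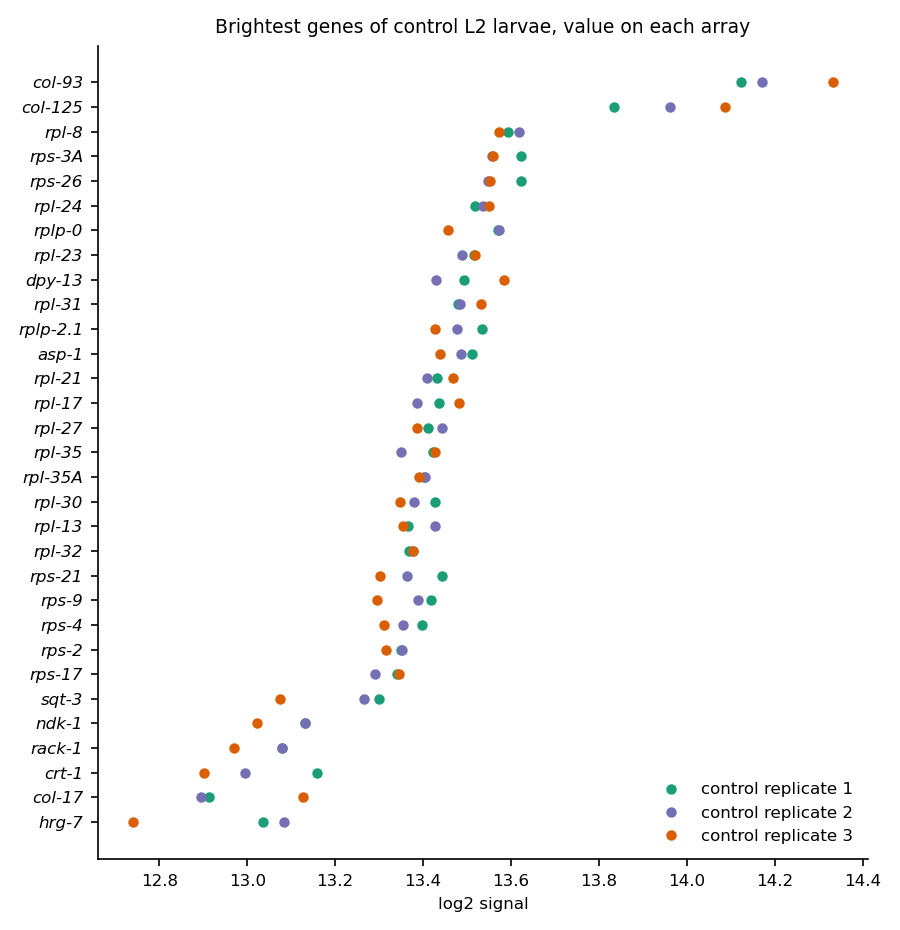
Log2 signal on control replicates 1, 2 and 3 of the 25 brightest genes and of the 10 brightest outside ribosomal proteins and translation factors, 1 point per array. The collagen genes col-93 and col-125 lie above the ribosomal proteins, and the 3 points of most genes lie within 0.2 log2 of each other.

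Genes for energy supply, acidic organelles and protein folding followed the ribosome. Of 35 genes of oxidative phosphorylation, 29 were among the brightest 5%, with a median percentile of 97.8. The cytochrome c gene cyc-2.1 read 12.98, 12.96 and 12.85, whereas cyc-2.2, the other cytochrome c gene, was dim on all 3 arrays, with a mean of 2.93 ± 0.07 (SD, n = 3). Of 18 subunits of the vacuolar ATPase, the proton pump of lysosomes and of the excretory canal, 15 were in the brightest 5%, led by vha-12 at 12.26, 12.23 and 12.16. In glycolysis 8 of 15 genes were, led by the glyceraldehyde-3-phosphate dehydrogenase gene gpd-2 at 12.66, 12.66 and 12.64, whereas the phosphofructokinase genes differed, with pfk-1.1 at 9.13, 9.05 and 9.26 and pfk-1.2 dim at 4.13, 4.32 and 4.39.

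Chaperones of unstressed cells were bright in 7 of 9 genes, with the HSP70 gene hsp-1 at 12.21, 12.29 and 12.39. The chaperonin CCT, which folds actin and tubulin, had 6 of its 8 subunit genes in the brightest 5%. Its subunits act in equal numbers in 1 complex, yet their signals ran over a wide range, with cct-5 at 11.44, 11.41 and 11.45 and cct-3 at 5.76, 6.04 and 5.55. Of 33 proteasome genes 11 were in the brightest 5%, led by rpt-4 at 10.35, 10.21 and 10.23. Mitochondrial ribosomal proteins ranked lower than cytosolic ones, with none of 59 genes in the brightest 5% and a median percentile of 86.4. Their brightest gene was mrps-5, at 9.50, 9.61 and 9.65.

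**Figure D3:**
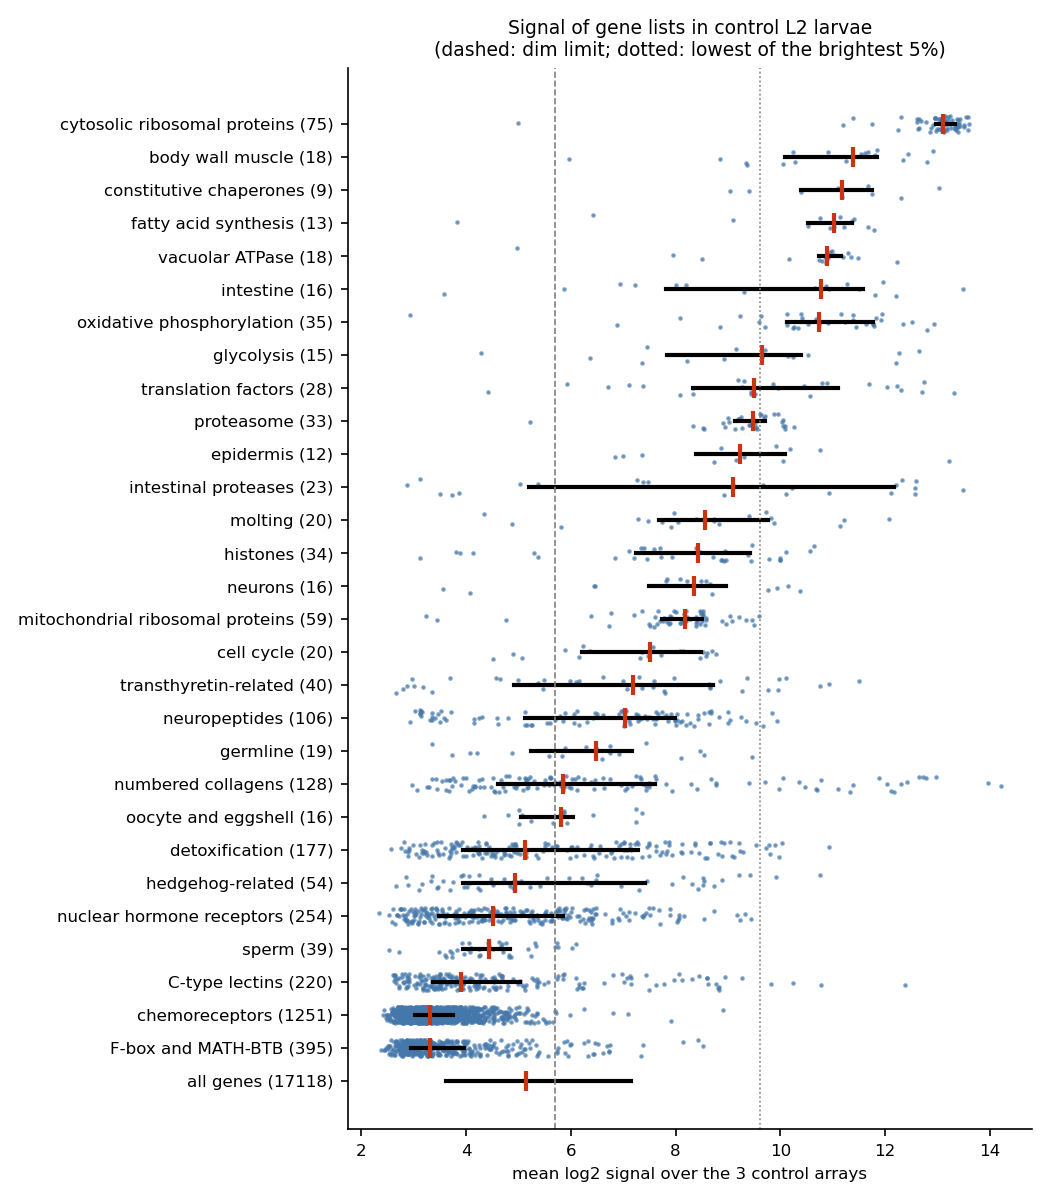
Mean log2 signal over the 3 control arrays for the genes of 29 lists, 1 point per gene, with the median as a red mark, the interquartile range as a black bar and the number of genes in brackets. The dashed line is the dim limit of 5.70 and the dotted line the lowest of the brightest 5%, 9.62. Ribosomal proteins lie at the top of the range, and chemoreceptors and F-box genes lie almost wholly below the dim limit.

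Genes of the larval tissues ranked by tissue. All 18 body wall muscle genes, mostly of the contractile apparatus, were above the dim level and 14 were in the brightest 5%, led by the myosin light chain gene mlc-2 at 13.01, 12.95 and 12.79. The dimmest was lev-8, for an acetylcholine receptor subunit, at 6.08, 6.11 and 5.68. Pharyngeal muscle had a median percentile of 85.0, with the pharyngeal myosin gene myo-1 at 9.92, 10.16 and 9.77 and the regulator gene ceh-22 dim at 4.50, 4.60 and 4.71. In the intestine 9 of 16 genes were in the brightest 5%, whereas the metallothionein gene mtl-1, known to respond to metals, was dim at 3.28, 3.89 and 3.54.

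Digestive proteases divided into bright and dim genes, with 11 of 23 aspartic and cathepsin B-like protease genes in the brightest 5% and 7 dim. Alongside asp-1 stood asp-6, with a mean of 12.59, and cpr-5, with 12.33, while asp-11 averaged 2.87. Fatty acid synthesis was bright in 10 of 13 genes. The elongase gene elo-5, needed for branched-chain fatty acids, read 11.61, 11.79 and 11.95. The desaturase genes fat-5, fat-6 and fat-7 act on saturated fatty acids and differed widely: fat-6 averaged 10.95, fat-7 averaged 6.43 and fat-5 was dim at 3.83. Of the lipid-binding proteins, far-1 was brightest at 12.67, 12.61 and 12.47. Among secreted defence proteins the saposin-like gene spp-14 read 11.66, 11.72 and 11.77 and the lectin gene clec-63 read 12.40, 12.34 and 12.39, although 178 of the 220 C-type lectin genes were dim.

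Genes used by all or most neurons had a median percentile of 87.8, and 4 of 16 were in the brightest 5%. The brightest was egl-3, for a protease that matures neuropeptides, at 10.23, 10.29 and 10.61. Genes of single neuron classes had a median percentile of 58.9, from mec-7, the tubulin gene of touch neurons, at 8.76, 8.79 and 9.29, down to mec-3, a transcription factor gene of the same cells, at 3.75, 3.95 and 3.96. Another probe set of mec-7 was dim, with a mean of 5.23. Among 106 neuropeptide genes 34 were dim, and flp-9 was brightest at 9.78, 9.94 and 10.07. Coelomocytes, a few scavenger cells, were read by 4 genes between 6.25 and 6.75.

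Stage-related groups held both bright and dim members. Of 10 heterochronic genes, which time larval cell fates, the nuclear receptor gene daf-12 was brightest at 10.02, 9.74 and 9.85. Another probe set of daf-12 gave 8.16, 7.93 and 7.02, and a further one averaged 3.45. Next came hbl-1, a transcription factor gene of early larval fates, at 8.79, 8.83 and 8.92, although another of its probe sets averaged 6.17. The early-stage gene lin-14 was dim in its single probe set, at 3.40, 3.63 and 3.33. In the cell cycle list 17 of 20 genes were above the dim level, with the replication helicase gene mcm-5 at 9.05, 8.87 and 8.39 and the cyclin E gene cye-1 dim at 4.58, 4.58 and 4.40. The RNA interference genes, whose pathway the feeding protocol uses, lay mid-range, with 10 of 15 above the dim level. Their brightest was rde-4, for a double-stranded RNA binding protein, at 8.19, 8.07 and 8.07, and sid-1, for the channel that takes the RNA into cells, averaged 5.55.

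Histone genes, whose transcripts are made in dividing cells, had 7 of 34 members in the brightest 5% and 6 dim. The replacement histone gene his-72 read 10.45, 10.52 and 10.96, and his-73 was dim at 3.07, 3.07 and 3.20. Replicated histone genes such as his-39, at 7.98, 7.52 and 6.83, share near-identical sequence, and their signals cannot be assigned to 1 copy. In the excretory canal list the ATPase gene vha-8 was brightest at 11.29, 11.34 and 11.40 and the aquaporin gene aqp-8, a marker of that cell, read 7.37, 7.07 and 6.72. Of 19 germ line genes 13 were above the dim level and none was in the brightest 5%. The brightest of them was car-1, for an RNA granule protein, at 9.41, 9.47 and 9.49, and the dimmest was nos-2, at 3.42, 3.33 and 3.27.

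At the other end, 9696 genes (56.6% of all genes) were dim. No detection calls were used here, so dim was defined as a mean at or below 5.70, the 90th percentile of 39 genes of sperm, which larvae of this stage are not known to make. The list that sets the limit is by construction mostly dim, and its 4 genes above it are msp-40, msp-59, sss-2 and msp-53, between 5.74 and 6.10. Just inside the limit was metl-5 and just outside it vglu-2, both at 5.70. Dim means a low array signal and does not show that a transcript is absent.

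Whole families of receptors lay below that limit. Of 1251 candidate chemoreceptor genes, which encode odorant and taste receptors of sensory neurons, 1244 were dim and the median signal was 3.32, at a percentile of 17.2. The 7 above the limit were srr-4, srv-1, srd-29, srsx-34, srr-2, srd-53 and srh-307. The brightest, srr-4, read 8.34, 8.78 and 9.61. Of 395 F-box and MATH-BTB genes, candidate adaptors for protein degradation, 369 were dim, and bath-44 was brightest at 8.47, 8.51 and 8.59. Of 254 nuclear hormone receptor genes 182 were dim, and nhr-88 was brightest at 9.16, 9.27 and 9.90. That place rests on 1 probe set, as the others of nhr-88 averaged 4.90, 5.25 and 6.92. All 5 measured yolk genes were dim, the highest being vit-6 at 5.74, 5.71 and 5.50, and so were the 3 adult cuticle collagen genes bli-1, bli-2 and col-19. Of 16 oocyte and eggshell genes 7 were dim, or 43.75% against 56.6% of all genes. The eggshell gene cpg-1 was the brightest of them at 7.34, 7.38 and 7.35, whereas its second probe set averaged 4.46.

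Sorted by symbol, 146 families of at least 10 genes held 4914 genes. The families rpl, rps, cox (cytochrome c oxidase), vha (vacuolar ATPase), lec (galectins), rpn (proteasome), eif (translation initiation), hrg (heme-responsive genes) and rpb (RNA polymerase II) had a median percentile of at least 90. The family medians of these 9 ran from 90.5 for rpb to 99.7 for rpl. A median percentile under 25 was found in 31 families, lowest in srb (8.17), math (8.33), srz (9.24), fbxb (12.1), irld (12.4), srbc (12.5), srab (13.6) and sra (14.99). In 18 families, with 1075 genes, every member was dim. In rps, rpb and gtf, the last of these a set of general transcription factors, no member was dim. Genes with no family name made up 39.3% of all genes but 14.7% of the brightest 5% and 46.99% of dim genes.

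The cuticle collagens spanned the whole range. Of 128 genes named col, 23 were in the brightest 5% and 60 were dim, from col-93 at 14.21 down to col-55 at 3.02, 2.85 and 3.04. In the brightest 5% stood also col-73, with a mean of 12.71, col-119 with 12.31 and col-43 with 12.17. Many of these genes are near-identical in parts, and 12 of them were in the brightest 1%, each read by an _x_at probe set. The collagens of the circumferential furrows, made in a fixed step of each molting cycle, were bright as a group and uneven between arrays. For dpy-7 the values were 11.08, 10.68 and 8.77, and for dpy-8 they were 11.08, 10.47 and 8.54. In both genes replicate 3 was low by at least 1.9 log2 against each of the other arrays.

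Genes that varied between the 3 arrays were then set apart. An SD of at least 0.5 log2 was found in 473 genes above the dim level, 2.76% of all genes and 6.37% of the 7422 that were not dim. The smallest SD inside was 0.50, in T25G12.3, and R05H10.1 lay just outside, also at 0.50. Replicate 3 was the array farthest from the mean of the other 2 in 436 of the 473 genes, higher in 196 and lower in 240. Over all genes replicate 3 was farthest in 8529, or 49.8%, and over the 7422 genes that were not dim in 4292, or 57.8%. In 428 of the 473 genes replicate 2 lay between the other arrays. From replicates 1 and 2 alone, 73 genes were variable, of which 67 were among the 473, so most of the variable genes rest on replicate 3.

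Variability was not confined to weak signals. When the genes were divided into 10 groups of like size by mean signal, the median SD was 0.073 in the dimmest group, 0.134 in group 7 and 0.119 in the brightest group, where 100 of 1712 genes had an SD of at least 0.5. Of the 856 brightest genes 441 had an SD under 0.1, and 38 were variable. Among these 38, F41F3.3 read 11.92, 12.29 and 13.02, the cuticlin gene cut-2 read 10.89, 11.41 and 11.99 and ram-2 read 9.14, 10.30 and 11.78. All 3 were highest in replicate 3. The peptidyl-prolyl isomerase gene fkb-5, at 11.62, 11.25 and 10.06, and the collagen gene sqt-1, at 10.48, 10.18 and 9.50, were lowest there. Genes without a family name supplied 188 of the 473, or 39.7%, close to their 39.3% of all genes.

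The genes of largest SD fell into a high and a low set in replicate 3. Values of K01D12.9 were 4.76, 6.49 and 8.53 in control replicates 1, 2 and 3 (SD 1.88). F10D11.6 had 6.37, 8.23 and 9.79, and its second probe set gave 6.47, 7.75 and 8.81. Replicate 3 was highest in both. In F10D11.6, however, replicate 1 differed more from the mean of the other arrays, by -2.64 log2, than replicate 3 did, by 2.49. Replicate 1 was also the farthest array, and low, in grl-21, Y47D7A.13, dbd-13, col-97 and abu-15, which are among the 20 genes of largest SD. Low in replicate 3 were lep-5, a long noncoding RNA gene of larval timing, at 10.59, 10.36 and 7.66, and atf-8, a transcription factor gene, at 8.20, 7.45 and 5.23. Of the 20 genes of largest SD, 14 were highest and 6 lowest in replicate 3, with replicate 2 between the other arrays in 18. The 2 exceptions were rrn-3.56, at 6.51, 5.33 and 8.34, and hsp-70, at 6.73, 6.84 and 4.19. Where a variable gene had further probe sets, they mostly moved the same way: 102 of 112 such probe sets, or 91.1%, had the same direction in replicate 3, against 62.3% over genes that were not dim.

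**Figure D4:**
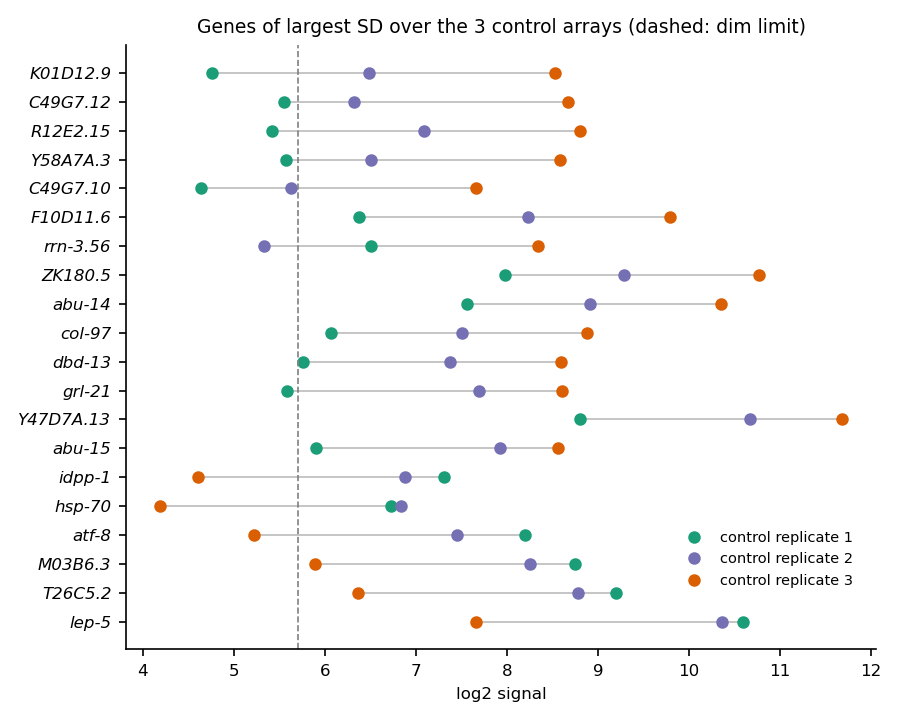
Log2 signal on control replicates 1, 2 and 3 of the 20 genes of largest SD that were not dim, joined by a grey line per gene, with the dim limit as a dashed line. Replicate 3 is the highest point in the upper 14 genes and the lowest point in the lower 6, from hsp-70 and idpp-1 to lep-5.

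Furrow collagens and molting genes belonged to the low set. All 5 measured furrow collagen genes were variable and lower in replicate 3 than in the mean of the other arrays, against 55.3% of all genes lower there. The median difference was -1.995 log2. For dpy-3 the values were 11.29, 10.86 and 9.08, for dpy-2 10.85, 10.51 and 8.76 and for dpy-9 9.996, 9.53 and 8.05. The second probe set of dpy-2 gave 10.31, 10.02 and 8.18. From replicates 1 and 2 alone, none of the 5 was variable. Of 20 genes required for molting 8 were variable, or 40% against 2.76% of all genes. All 8 were low in replicate 3, and none was variable from replicates 1 and 2 alone. They were mlt-9, mlt-11, nas-37, noah-2, fbn-1, let-653, qua-1 and ptr-4. For nas-37, an astacin metalloprotease gene that acts in shedding the old cuticle, the values were 8.07, 7.81 and 5.98. The matrix protein gene noah-2 gave 11.88, 11.69 and 10.09. In noah-1, the brightest of the list, the brightest probe set differed less, at 12.43, 12.25 and 11.53. The second probe set of noah-1 gave 11.92, 11.68 and 10.09.

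The lipocalin-related genes lpr, a family of 7 measured genes, were singled out after their values were seen. Of the 7 genes 5 were variable, against 2.76% of all genes, and all 5 were low in replicate 3. From replicates 1 and 2 alone none of them was variable. The brightest, lpr-3, read 12.01, 11.78 and 10.09, and lpr-5 read 10.74, 10.31 and 8.49. Both genes were more than 3-fold lower in replicate 3 than in either other array. Of the hedgehog-related genes, which encode secreted proteins of epidermal cells, 14 of 54 were variable, or 25.9% against 2.76% of all genes. From replicates 1 and 2 alone 4 were variable. The warthog genes wrt-10, at 11.55, 11.16 and 9.53, wrt-2, at 10.82, 10.36 and 8.57, and wrt-1, at 10.30, 9.92 and 8.03, were low in replicate 3. The ground-like genes grl-21, at 5.58, 7.69 and 8.60, and grl-16, at 7.49, 8.46 and 9.63, were high there, so the variable members lay on both sides. In 8 of the 14 replicate 3 was farthest and low, and in 4 farthest and high.

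The high set in replicate 3 held other cuticle genes. Of 128 numbered collagens 21 were variable, against 2.76% of all genes. In replicate 3, 18 of the 21 were above the mean of the other arrays and 3 below it. Of all 128 numbered collagens 96 were higher in replicate 3, against 44.6% of all genes. For col-39 the values were 8.05, 9.42 and 10.75, for col-107 8.91, 9.75 and 11.29 and for col-97 6.06, 7.50 and 8.89. The 3 genes below were col-149, at 11.53, 11.10 and 9.71, col-128, at 8.27, 7.58 and 5.90, and col-153, at 6.32, 6.30 and 5.08. Thus furrow collagens and most variable numbered collagens lay on opposite sides in replicate 3. Replicate 3 was the farthest array and high in 14 of the 18, while in the other 4, col-39 and col-97 among them, replicate 1 was farther, and low. From replicates 1 and 2 alone, 9 numbered collagens were variable with the dim limit taken from those arrays, and 10 with the limit of all 3.

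Genes of the abu family, known to be made for the lining of the pharynx, varied on all 3 arrays. Of 11 measured genes 6 were variable, or 54.5% against 2.76% of all genes. In 5 of the 6 replicate 1 was the farthest array, and low. The exception was abu-14, in which replicate 3 was farthest, and high. For abu-14 the values were 7.56, 8.92 and 10.36, and its second probe set gave 7.05, 8.14 and 9.45. For abu-15 they were 5.91, 7.93 and 8.56 and for abu-6 6.09, 8.04 and 8.40. Unlike the furrow collagens, all 6 were also variable from replicates 1 and 2 alone, with the dim limit of the 3 arrays. Among transthyretin-related genes, secreted proteins with a large nematode-specific family, 4 of 40 were variable, against 2.76% of all genes. All 4 were high in replicate 3, and 1 was variable from replicates 1 and 2 alone. The gene of largest SD, ttr-21, read 6.93, 7.74 and 9.23. Of 58 measured nlp genes, which encode neuropeptide-like proteins, 4 were variable, or 6.90% against 2.76% of all genes. Only genes that were not dim could be called, which were 41 of the 58. Over all genes that were not dim 6.37% were variable, so the nlp count is not clearly above that share. The variable nlp genes were nlp-27, nlp-30, nlp-31 and nlp-33, and all 4 were high in replicate 3. For nlp-30 the values were 6.81, 7.20 and 8.23. From replicates 1 and 2 alone none of the 4 was variable.

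Stress, lipid and detoxification genes gave smaller groups. The 3 measured inducible chaperone genes, known for their response to heat, were all variable and lowest in replicate 3, by a median of -2.03 log2. Besides hsp-70, they were hsp-16.2, at 9.02, 9.14 and 7.32, and hsp-16.41, at 8.38, 8.66 and 6.49. None of them was variable from replicates 1 and 2 alone. The chaperones of unstressed cells had no variable gene among 9, a list too short to differ from the 2.76% of all genes. The desaturase gene fat-7 read 6.79, 7.28 and 5.22 and the fatty acid synthase gene fasn-1 read 11.84, 11.68 and 10.73. They were the 2 variable genes of 13 in fatty acid synthesis, with none from replicates 1 and 2 alone. Of 177 detoxification genes 13 were variable, 7 farthest and high in replicate 3 and 6 farthest and low, with 7.34% of the list variable against 2.76% of all genes. From replicates 1 and 2 alone 1 was variable. The cytochrome P450 gene cyp-33C8 was high, at 6.82, 7.13 and 8.92, and cyp-35A3 was low, at 8.86, 8.98 and 7.24. Of 10 heterochronic genes 2 were variable, against 2.76% of all genes, with lin-28 at 7.20, 7.26 and 8.23 and lin-29 at 7.63, 7.24 and 6.47. Neither of these genes was variable from replicates 1 and 2 alone. Other probe sets of lin-28 were dim and differed less, at 4.85, 4.99 and 5.33 and at 5.49, 5.13 and 5.61.

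No variable gene was found among the 75 ribosomal proteins, the 59 mitochondrial ribosomal proteins, the 33 proteasome genes, the 35 genes of oxidative phosphorylation and the 18 genes each of the vacuolar ATPase and of body wall muscle. Over all genes 2.76% were variable, a share that a count of 0 in any of these lists, of 18 to 75 genes, does not depart from clearly. The median difference of replicate 3 from the other arrays was -0.01 log2 for ribosomal proteins, -0.17 for the proteasome and -0.06 for body wall muscle. Neuronal genes were slightly higher in replicate 3, in 13 of 16 genes and by a median of 0.27, against 44.6% of all genes higher there, with none variable.

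**Figure D5:**
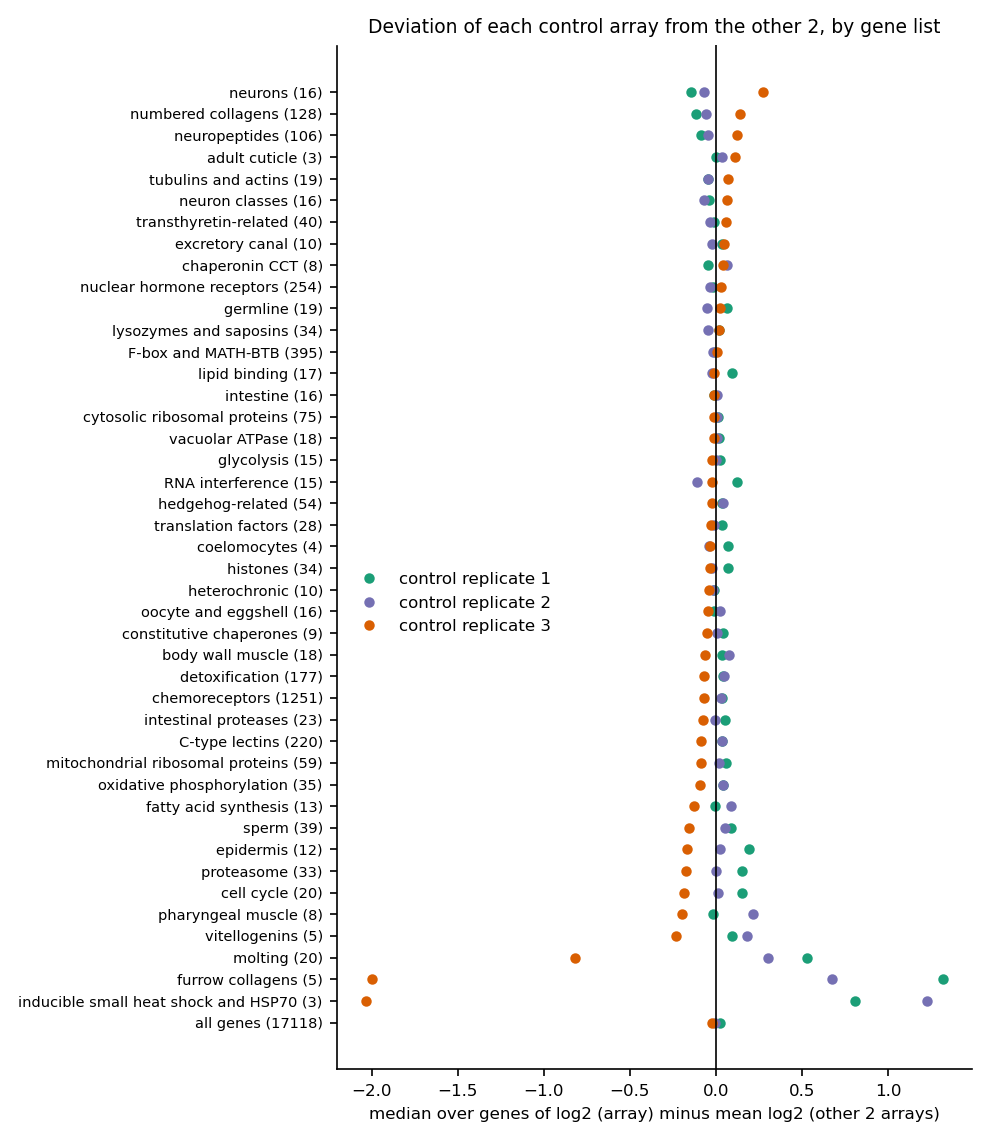
Median difference of each control array from the mean of the other 2 arrays, in log2, for each gene list and for all genes, 1 point per array. Furrow collagens, inducible heat shock genes and molting genes lie lowest in replicate 3, at -1.995, -2.03 and -0.82, and ribosomal proteins lie at 0 within 0.02.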

How the data were processed

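The deposited table holds the authors' log2 values of 22625 probe sets. Per the submitters' processing notes, MAS5, RMA and Partek were used, but neither their versions nor the role of each are stated. A genome build of the probes was not given in the sources used here. No further normalization was applied. Array controls (77 probe sets), probe sets with several gene symbols (887) and those the platform annotation does not list (895) were left out. Of the remaining 20766, symbols of 20701 were updated from the RefSeq gene table of WBcel235 and 65 kept the older one. Each of 17118 genes was read by its brightest probe set over the 3 control arrays. Array number limits the precision.

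With 1 group of 3 arrays no test was run. Genes are described by mean, SD and rank. The members, lists and thresholds were chosen with earlier results of these data known. Named genes were the 25 brightest, the 10 brightest outside ribosome and translation, the 20 of largest SD that were not dim, the brightest, dimmest and middle members of the 8 highest and 8 lowest families, and the brightest, dimmest and most variable member of each list, with all members of lists of at most 10. The cell type markers and the ends of the sperm list were named too. Any further gene was picked with its values known. The computation used Python 3.11.15 with pandas 2.3.3 and numpy 2.4.6 and was tested on simulated data.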

Additional observations from a re-analysis of the deposited data

How the results depend on the processing

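Alternatives were tried for the probe set that stands for a gene, the scaling of the arrays, the dim limit, the measure of spread and each array left out. With the shared kinds of probe set (_s_at and _x_at) left out, which leaves 13618 genes, 468 of the 856 brightest genes stayed in the brightest 5%, and 3 families in place of 9 had a median percentile of at least 90. With the 90th percentile of the chemoreceptor list as the limit, 6382 genes were dim in place of 9696. Leaving out 1 array gave between 73 variable genes, without replicate 3, and 745, without replicate 2, and kept between 827 and 839 of the brightest genes. The number of dim genes then lay between 9579 and 9842. Quantile normalization changed these counts little, with 469 variable genes. Of the lists, vitellogenins moved most, to a median percentile of 9.87 without the shared probe sets, against 42.8. No paired analysis was possible because the results come from no test and from 1 group. The lack of detection calls limits what can be said of dim genes.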

Other observations

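Replicate 1 was the array farthest from the others in 33 of the 473 variable genes, low in 28 and high in 5. Among these, named after their values were seen, were dbd-13, at 5.77, 7.37 and 8.60, and ins-5, an insulin-like peptide gene, at 9.31, 8.59 and 8.14. Replicate 2 was the array farthest from the others in 4 genes, chosen here after their values were seen: acdh-1, clec-47, pud-3 and lipl-1. The largest difference was in acdh-1, for an acyl-CoA dehydrogenase known to respond to vitamin B12 in the bacterial diet, which read 10.51, 8.82 and 10.56 in control replicates 1, 2 and 3. The lectin gene clec-47 was also lowest in replicate 2, at 7.40, 6.34 and 7.72. The genes pud-3, at 8.06, 9.04 and 8.18, and lipl-1, for a lysosomal lipase, at 5.97, 7.13 and 6.42, were highest there. Each is read by 1 probe set.

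Probe sets outside the gene comparison also held bright signals. Of the 887 probe sets with several gene symbols, 59 were at or above the lowest signal of the brightest 5% of genes and 615 were dim. Of the 895 that the annotation does not list, 4 were that bright and 739 were dim.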
